A study of Mus musculus with 221 samples.

Results

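The genes described here are 10 members of 2 linked groups: the high mobility group (HMG) proteins Hmgb1, Hmgb2, Hmgb3, Hmgn1, Hmgn2, Hmga1 and Hmga2, and the fetal RNA-binding proteins Lin28b, Igf2bp1 and Igf2bp3. They were chosen by gene symbol. Their 69 transcripts stand among 278369 transcripts and 78001 gene symbols in the count table, and 18 further symbols are pseudogenes or copies named after them. HMG proteins are abundant chromatin proteins: the HMGB proteins bend DNA, the HMGN proteins bind nucleosomes and loosen their packing, and the HMGA proteins bind AT-rich DNA through AT-hook motifs. LIN28B blocks the maturation of let-7 microRNAs, which repress a set of fetal growth genes that includes Hmga2, Igf2bp1 and Igf2bp3, and in the blood system this circuit is known for marking fetal as opposed to adult stem cells.

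The data are full-length cDNA of 221 single mouse cells read on a nanopore instrument, with 1 deposited sample per cell. Hemogenic endothelium (HE), the endothelium that turns into blood, came from the aorta-gonad-mesonephros region of the embryo (HE-AGM, an early cluster c3 of 29 cells and a late cluster c4 of 20), from yolk sac arteries (HE-YSA, early a1 of 23 and late a2 of 29) and from the yolk sac plexus (HE-YSP, early b2 of 25 and late b3 of 24). The products were an intra-aortic cluster c5 of 21 cells, 17 lympho-myeloid skewed progenitors (p1) and 20 erythro-myeloid skewed progenitors (p2) of the yolk sac, all cell numbers after a filter on library size that kept 208 cells. The embryos carried Gfi1-GFP or Runx1b-RFP reporter alleles and came from crosses with wild-type outbred females, and the HE was sorted without CD41 and CD45, as KIT-negative, CDH5-positive cells with a Gfi1 or Gfi1b signal in the AGM and as KIT-positive, CD31-positive reporter cells in the yolk sac. The yolk sac cells, all but 1, are labelled E9, E9.5 or E10.5, while the AGM cells carry no stage in their labels but for 1 of E10.5.

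No embryo is named for any cell, so each cluster is 1 sample, no test was run, and a gene is called higher or lower only where its levels differed 2-fold or more. Levels are counts per 1000000 counts (CPM), from sums over the cells of a cluster, and the 95% intervals are exact Poisson or binomial intervals that cover counting error only. Totals per cell ran from 18131 to 125339, with cluster medians of 55908 to 65348 in the AGM and 30858 to 36710 in the yolk sac. Transcripts of 3000 nt or more held 9.80% to 13.4% of the counts in the 3 AGM clusters and 4.50% to 6.15% in the 6 yolk sac clusters. The cDNA of the AGM cells and that of the yolk sac cells, 1 cell aside, came from different projects by the library names, so tissue and cDNA project cannot be told apart. Without the 3 yolk sac HE cells whose library names point to the AGM, the same members passed 2-fold in each HE comparison. Endothelial markers summed to 1319 to 4280 CPM in the 6 HE clusters and to 411 to 798 CPM in c5, p1 and p2, and markers of yolk sac endoderm reached at most 20.7 CPM in any cluster. Erythroid markers summed to 358 CPM in c3, with 2 of 9 at 0, and to between 2.65 and 51.6 CPM in the other clusters. Mesenchyme markers summed to 172 CPM in c5, all of it on 1 of 7 genes, and to at most 30.9 CPM elsewhere. The part of either in the values below was not tested.

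The let-7 family is shown first because its seed, bases 2 to 8 in capitals, is the letter string that links Lin28b to the other genes. The sequences are those of RefSeq on GRCm38.p6, where let-7a lies at chr13:48538239-48538260 on the minus strand. Of 11 mature let-7 family sequences, 10 share the seed of let-7a, and let-7j carries another last base.
let-7a-5p: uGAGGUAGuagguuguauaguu
let-7g-5p: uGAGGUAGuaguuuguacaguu
miR-98-5p: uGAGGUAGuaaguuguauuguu
let-7j: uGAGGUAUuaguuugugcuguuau

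The complement of the let-7a seed, CTACCTC, was searched on the transcript strand of the 3′ UTRs of GENCODE M21, where 9.02% of 21027 genes held at least 1 match. Hmga2-203 held 4 matches in a 3′ UTR of 3014 nt, Lin28b-201 held 4 in 4445 nt and Igf2bp1-201 held 4 in 6337 nt. As many matches were present in 0.123%, 0.295% and 0.331% of 3′ UTRs of like length. Igf2bp3-201 held 1 match in 2119 nt and Hmga1-216 held 1 in 1183 nt, where 13.3% and 8.24% of UTRs of like length held any. The 3′ UTRs of Hmgb1, Hmgb2, Hmgb3, Hmgn1 and Hmgn2 held none. A match is a description of letters, and mature let-7 was not measured in these poly(A) libraries. The first site of each gene is printed in capitals with 10 bases on either side, to show the flanks. The core is the same in all because it was the string searched for.
Hmga2, site 1: cattcaatttCTACCTCagcatcagtt
Lin28b, site 1: ggcgggaagtCTACCTCatgcaagcac
Igf2bp1, site 1: gcgaagtaaaCTACCTCaaggtgtgaa
Igf2bp3, its site: ttttactcaaCTACCTCaggtattcag
Hmga1, its site: tgttcacaaaCTACCTCtggacggttg

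Hmga2, an AT-hook protein of fetal and embryonic growth at chr10:120361275-120476469 (minus strand, GRCm38), was high in every AGM cluster and low in every yolk sac cluster. Its level was 421 CPM in c3, 558 in c4 and 471 in c5. In the yolk sac it was 82.1 CPM in a1, 100.5 in a2, 49.4 in b2, 78.0 in b3, 114 in p1 and 108 in p2, so that the lowest AGM cluster was above the highest yolk sac cluster. Over the HE populations the level was 478 CPM (95% interval 455 to 503, 1593 counts) in HE-AGM, 92.4 CPM (79.2 to 107, 176 counts) in HE-YSA and 63.4 CPM (51.9 to 76.7, 106 counts) in HE-YSP. The single cells of HE-AGM ran from 33.7 CPM through a median of 421 to 1524 CPM, and those of HE-YSA from 0 through 73.6 to 390 CPM and of HE-YSP from 0 through 23.9 to 521 CPM, so that the cells of the populations overlapped. At least 1 count was present in 49 of 49 cells of HE-AGM, 36 of 52 of HE-YSA and 26 of 49 of HE-YSP. The yolk sac cells were shallower, and with every cell thinned to the same depth the shares were 95.9%, 65.4% and 42.9%.

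HE-AGM stood 5.17-fold above HE-YSA for Hmga2 (log2 2.37, 2.15 to 2.61) and 7.51-fold above HE-YSP (log2 2.91, 2.63 to 3.21), both ratios resting on the same HE-AGM cells. Each of the 3 sequencing runs held cells of every cluster, and within single runs these log2 ratios lay between 2.03 and 3.39 and between 2.65 and 3.30. Within the yolk sac HE, Hmga2 was at 26.1 CPM in 18 cells of E9, 134 CPM in 27 cells of E9.5 and 68.2 CPM in 55 cells of E10.5. The E9 cells were nearly all HE-YSP, where the level was 26.5 CPM at E9, 143 CPM at E9.5 and 46.8 CPM at E10.5. All of these stage values were below the level of each AGM cluster. The counts of Hmga2 were whole numbers in all 160 cells that had any, within a tolerance of 0.001, where a read divided between genes would leave a fraction.

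**Figure D1:**
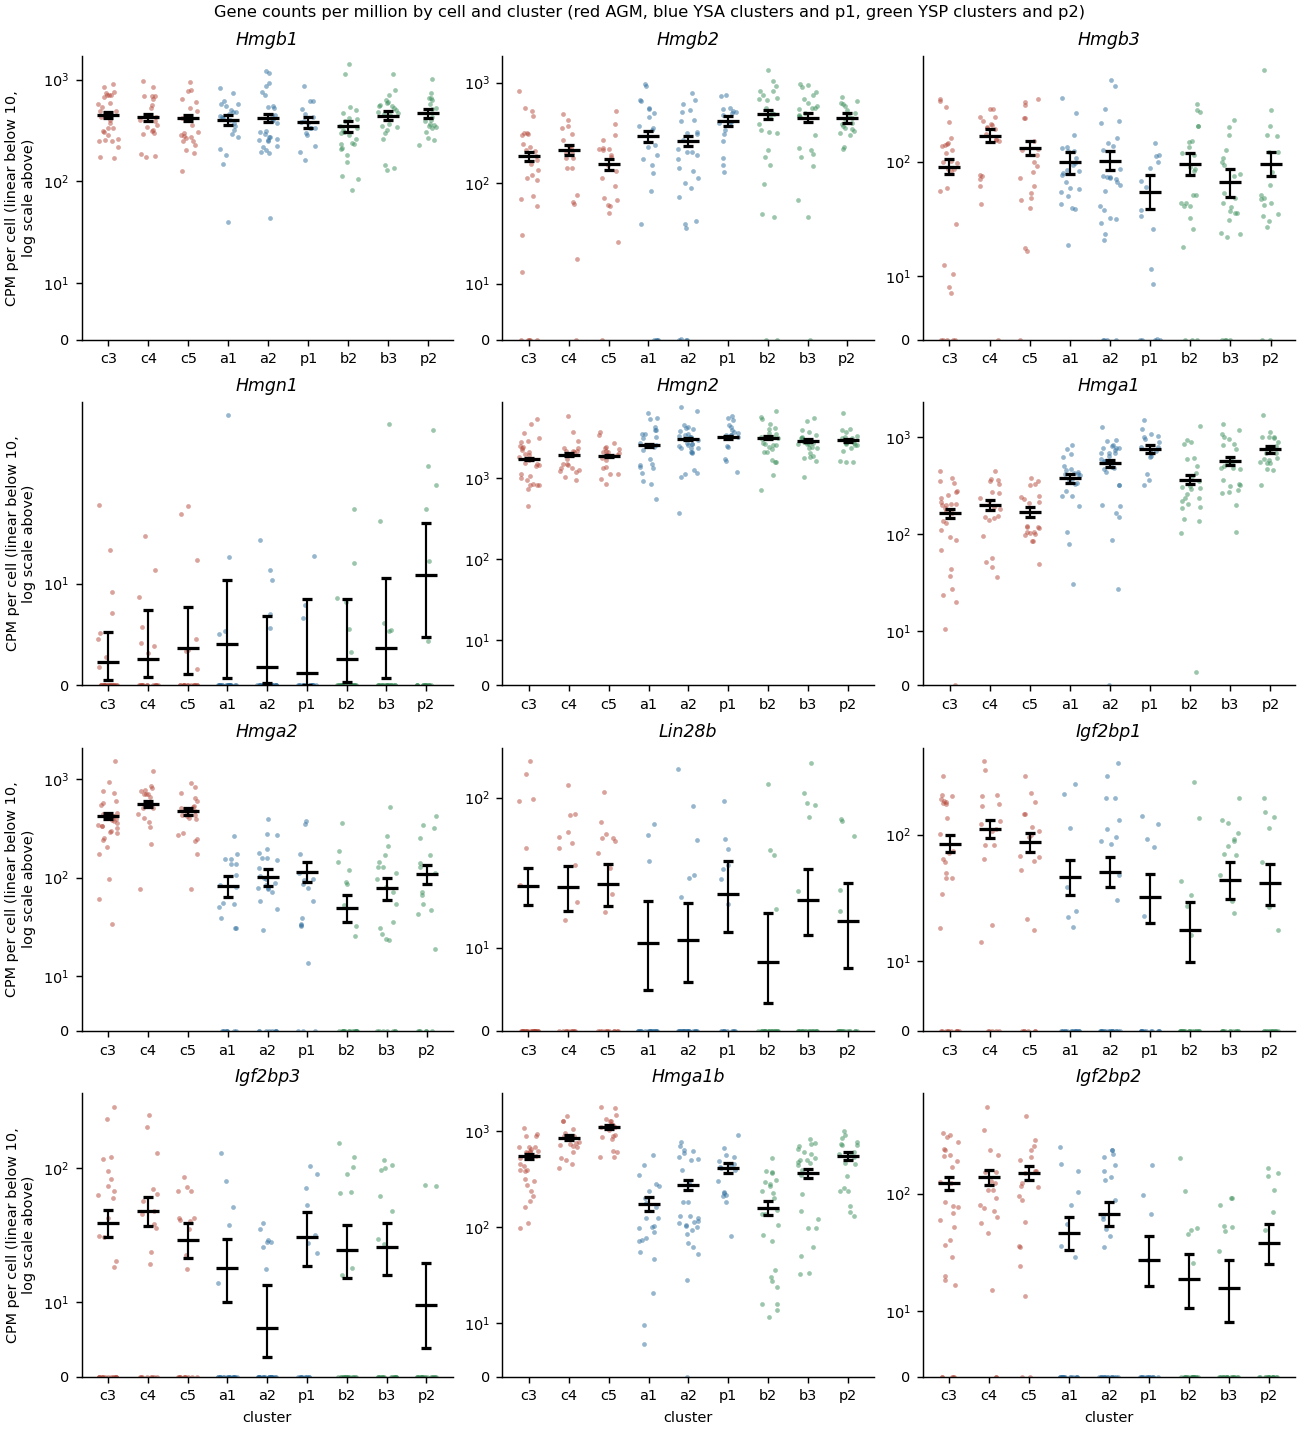
Levels of the 10 genes, and of Hmga1b and Igf2bp2, in single cells of the 9 clusters. Points are cells (y axis CPM, linear below 10 and logarithmic above), black bars are the CPM of the summed counts with 95% Poisson intervals, and colours mark AGM clusters (red), HE-YSA and p1 (blue) and HE-YSP and p2 (green). Hmga2 lies at 421 to 558 CPM in the red clusters and at 49.4 to 114 CPM in the others. Hmga1 and Hmgb2 lie lower in the red clusters, though Hmgb2 by under 2-fold between HE-AGM and HE-YSA.

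Lin28b, the LIN28 paralog at chr10:45376620-45486395 (minus strand), was detected in few cells. Its level was 25.8 CPM in c3, 25.2 in c4 and 26.5 in c5, against 10.7 CPM in a1, 11.3 in a2, 8.23 in b2, 20.7 in b3, 22.8 in p1 and 15.02 in p2. The AGM clusters were thus all above the yolk sac clusters, though p1 and b3 came close to them within counting error. HE-AGM held 85 counts (25.5 CPM, 20.4 to 31.6), HE-YSA 21 counts (11.02 CPM, 6.82 to 16.8) and HE-YSP 24 counts (14.4 CPM, 9.20 to 21.4). The ratio of HE-AGM to HE-YSA was 2.28-fold (log2 1.19, 0.51 to 1.98), and in single runs its log2 ran from 0.01 to 1.83. In HE-AGM run 3 was highest, at 35.9 CPM against 16.4 and 17.2 CPM, and without it too few counts remained to read a ratio. The ratio to HE-YSP was 1.75-fold (log2 0.81, 0.16 to 1.55) and fell below 0 in run 2, at -0.09. The stages of the yolk sac HE did not all lie below the AGM: Lin28b was at 12.1 CPM at E9 (6 counts), 26.5 CPM at E9.5 (16.8 to 39.7, 23 counts) and 7.32 CPM at E10.5 (4.19 to 11.9, 16 counts). The E9.5 level was thus as high as that of HE-AGM, and in HE-YSP alone it was 31.2 CPM (16.1 to 54.5, 12 counts). With yolk sac cells of E10.5 only, the log2 ratio of HE-AGM was 1.72 to HE-YSA and 1.72 to HE-YSP.

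A few cells carried much of the Lin28b signal. Counts were present in 16 of 49 cells of HE-AGM (32.7%, 19.9% to 47.5%) and in 19 of 101 cells of the yolk sac HE (18.8%, 11.7% to 27.8%). After thinning to equal depth the shares were 16.3% and 13.9%, so most of that difference was not seen at equal depth. The 5 cells with the most counts held 57.6% of the HE-AGM counts and 42.2% of the yolk sac HE counts. The largest single cell held 18 counts in HE-AGM and 4 in the yolk sac HE. At 3 counts or more, 13 of 49 and 7 of 101 cells remained. Lin28a, the other LIN28 gene, held 4 counts in c5, 1 in a2 and 0 in the other 7 clusters.

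Igf2bp1 and Igf2bp3, which bind and stabilise fetal mRNAs such as that of Igf2, were also highest in HE-AGM. Igf2bp1 (chr11:95957163-96005940, minus strand) was at 84.6 CPM in c3, 111 in c4 and 86.8 in c5, and at 46.4 CPM in a1, 50.7 in a2, 17.6 in b2, 43.9 in b3, 32.0 in p1 and 41.0 in p2. The lowest AGM cluster was again above the highest yolk sac cluster. HE-AGM was 1.95-fold above HE-YSA for Igf2bp1 (log2 0.96, 0.63 to 1.32), just under the 2-fold limit, with 0.84 to 0.96 in single runs. It was 3.11-fold above HE-YSP (log2 1.64, 1.22 to 2.10), with a wider range of 0.64 to 2.88 between runs. Counts of Igf2bp1 were present in 34 of 49, 18 of 52 and 18 of 49 cells of HE-AGM, HE-YSA and HE-YSP, and in 61.2%, 30.8% and 28.6% after thinning.

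Igf2bp3 (chr6:49085223-49214957, minus strand) separated the clusters less cleanly. It was at 38.7 CPM in c3, 47.5 in c4 and 29.1 in c5, and at 17.8 CPM in a1, 6.57 in a2, 24.7 in b2, 25.6 in b3, 30.5 in p1 and 9.56 in p2, so that p1 lay above c5. HE-AGM (42.4 CPM, 141 counts) was 3.60-fold above HE-YSA (11.5 CPM, 22 counts; log2 1.85, 1.22 to 2.60) and 1.67-fold above HE-YSP (25.1 CPM, 42 counts; log2 0.74, 0.25 to 1.29). HE-YSP was 2.15-fold above HE-YSA (log2 1.11, 0.34 to 1.94), and this fell under 2-fold without run 2 (0.84) and could not be read without run 1 or run 3, where too few counts were left. Igf2bp2, the related gene that is no member of the set, was at 122 to 149 CPM in the AGM clusters and at 15.8 to 67.6 CPM in the yolk sac clusters. Its log2 ratio was 1.14 for HE-AGM over HE-YSA and 2.87 over HE-YSP.

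Hmga1, the second AT-hook gene (chr17:27556497-27563674, plus strand), went the other way from Hmga2. It was at 165 CPM in c3, 202 in c4 and 171 in c5, and at 381 CPM in a1, 542 in a2, 368 in b2, 570.4 in b3, 764 in p1 and 756 in p2. Every yolk sac cluster was thus above every AGM cluster, and the progenitors were the highest. HE-AGM (180.2 CPM, 166 to 195) was 2.61-fold below HE-YSA (471 CPM, 440.4 to 503; log2 -1.38, -1.54 to -1.23) and 2.59-fold below HE-YSP (467 CPM, 436 to 502), and lower in all 3 runs for both. With yolk sac cells of E10.5 alone the log2 ratio to HE-YSP was -0.93, under 2-fold. Cells of HE-AGM ran from 0 through 182 to 456 CPM, cells of HE-YSA from 0 through 448 to 1294 CPM and cells of HE-YSP from 2.40 through 362 to 1379 CPM.

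This direction held for Hmga1 alone and was not kept once its copy was added. Hmga1b (chr11:120762794-120764419, plus strand) is an intact retrocopy of Hmga1, annotated as protein-coding. Over 1602 nt Hmga1b-201 was 99.8% identical to Hmga1-216, and the coding sequences of 324 nt were identical. The 3 differences, A736G, A863G and G1325T (Hmga1-216 base first, positions from 1 at its 5′ end), all lay in the 3′ UTR. Hmga1b was at 541 CPM in c3, 845 in c4 and 1106 in c5, and at 173 CPM in a1, 275 in a2, 158 in b2, 360.3 in b3, 408 in p1 and 551 in p2. HE-AGM was 2.90-fold above HE-YSA and 2.59-fold above HE-YSP for Hmga1b, the reverse of Hmga1.

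The sum of the pair differed little between the HE populations. It was 848 CPM (817 to 879.8) in HE-AGM, 701 CPM (664 to 739) in HE-YSA and 725 CPM (685 to 767) in HE-YSP. By cluster the sum was 705 CPM in c3, 1047 in c4 and 1276 in c5, 553 in a1, 817 in a2 and 1173 in p1, and 526 in b2, 931 in b3 and 1307 in p2, so it was higher in the late cluster than in the early one and higher again in the product of each path. The log2 ratio of the sum was 0.28 for HE-AGM over HE-YSA, 0.23 over HE-YSP and 0.04 for c5 over the yolk sac progenitors. Hmga1b held 78.7% of the sum in HE-AGM (77.2% to 80.2%; 66.6% to 84.1% in single runs), 34.1% in the yolk sac HE (32.3% to 36.0%; 31.3% to 38.3%), 86.6% in c5 and 38.9% in the yolk sac progenitors. Counts of Hmga1 alone were whole in 29 of 206 cells and those of the pair in 207 of 207, so reads were divided within the pair and the value of either gene rests on how.

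**Figure D2:**
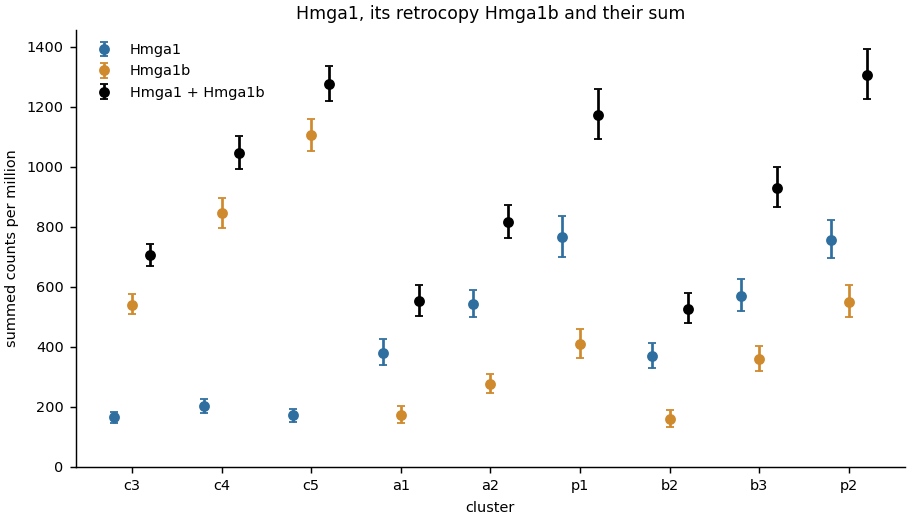
Hmga1, its retrocopy Hmga1b and their sum in the 9 clusters. The summed CPM and its 95% interval are drawn for each cluster, in blue for Hmga1, orange for Hmga1b and black for the sum. Hmga1 alone is lowest in the AGM clusters at 165 to 202 CPM, Hmga1b alone is highest in c4 and c5, and the sum spans 526 to 1307 CPM with no gap between tissues.

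The transcripts of Hmga1 code for several forms, among them a long and a short protein that differ by 11 codons next to an AT-hook. Other coding lengths are annotated too, such as the 357 nt of Hmga1-212. The extra 33 nt, coding positions 103 to 135 of Hmga1-205, are in capitals below, with 15 coding bases on either side, because reads that cross them tell the forms apart.
Hmga1-205: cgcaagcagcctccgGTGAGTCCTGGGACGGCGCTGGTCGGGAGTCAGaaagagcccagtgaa
The 10 of 17 Hmga1 transcripts that hold the insert took 82.4% of the gene's counts in HE-AGM (79.0% to 85.3%) and 88.0% in the yolk sac HE (86.4% to 89.5%). By run the HE-AGM share ran from 73.8% to 88.0%, and the early cluster c3 was lowest at 76.4% while c4 was at 89.2% and c5 at 87.4%. Hmga1b holds the insert too, and it took 78.7% of the counts of the pair in HE-AGM and 34.1% in the yolk sac HE. The shares above are thus of Hmga1 alone, rest on how reads were divided within the pair, and do not give the insert share over both genes.

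Hmgb2, an HMG box protein linked to dividing cells (chr8:57511907-57515999, plus strand), had its lowest levels in the AGM and its highest HE levels in HE-YSP. It was at 184 CPM in c3, 212 in c4 and 154 in c5, at 294 CPM in a1 and 262 in a2, at 483 CPM in b2 and 448 in b3, and at 417 CPM in p1 and 444 in p2. HE-AGM (196 CPM, 181 to 212) was lowest, HE-YSA (276 CPM, 253 to 301) lay between, and HE-YSP (466 CPM, 434 to 499.8) was at the level of the progenitors (431 CPM, 397 to 467). The intervals of the 3 HE populations did not overlap. The medians of single cells were 178, 205 and 473 CPM, with 0 as the lowest value in all 3 populations and 826, 976 and 1344 CPM as the highest.

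HE-AGM was 2.37-fold below HE-YSP for Hmgb2 (log2 -1.25, -1.40 to -1.10; -1.86 to -0.88 in single runs; -0.92, under 2-fold, without run 1), and its log2 ratio to HE-YSA was -0.49 (-0.66 to -0.32). HE-YSP was above HE-YSA by 0.75 on the log2 scale (0.59 to 0.92, and 0.54 to 0.95 in single runs). Both this difference and that of HE-AGM to HE-YSA were under 2-fold. On the way to blood, the log2 ratio of Hmgb2 was -0.46 for c5 over c4 (-0.71 to -0.21) and 0.67 for p1 over a2 (0.43 to 0.92), both under 2-fold. Each sign was the same in all 3 runs, though c5 and c4 differed by only -0.04 in run 2, and p2 and b3 differed by -0.01. Summed with the pseudogenes alike to it in sequence, Hmgb2 was at 477 CPM in c4 and 482 CPM in c5, so the drop was not kept, and at 832 CPM in a2 and 1355 CPM in p1. The transcript that took 98.0% of the counts in HE-AGM and 99.8% in the yolk sac HE was Hmgb2-202, a 414-nt model with an incomplete 3′ end. The full-length Hmgb2-201 of 2628 nt held 15 counts over all cells.

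Hmgn2, the nucleosome-binding protein with the most counts of the set (chr4:133964738-133968650, minus strand), was at 1719, 1951 and 1886 CPM in c3, c4 and c5. It was at 2555 CPM in a1, 3036 in a2, 3158 in b2, 2894 in b3, 3217 in p1 and 2946 in p2, so that the cluster levels of the tissues did not overlap. Single cells did, with 5786 CPM in a cell of c4 and 368 CPM in a cell of a2. The log2 ratio of HE-AGM was -0.64 to HE-YSA (-0.69 to -0.58) and -0.74 to HE-YSP, under 2-fold in both. Hmgb1, the general HMG box protein (chr5:149046702-149184489, minus strand), was nearly level: 451, 428 and 419 CPM in c3, c4 and c5, and 347 to 465 CPM in the yolk sac clusters. Its log2 ratio of HE-AGM to HE-YSA was 0.10 (-0.03 to 0.22) and to HE-YSP 0.16.

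Hmgb3, an HMG box protein known from early blood progenitors (chrX:71555918-71560676, plus strand), was at 90.2 CPM in c3, 168 in c4 and 131 in c5. In the yolk sac it was at 98.8 CPM in a1, 102 in a2, 94.9 in b2, 66.3 in b3, 54.2 in p1 and 95.3 in p2. The late HE-AGM cluster and c5 were thus the highest, and c3 lay within the yolk sac range. The log2 ratio of HE-AGM was 0.29 to HE-YSA (0.04 to 0.54) and 0.60 to HE-YSP (0.32 to 0.90). Between runs the former ranged from -0.24 to 1.00. Hmgn1 (chr16:96120618-96127729, minus strand), a relative of Hmgn2, held 32.8 counts over all 208 cells, at least 1 of them in 14 cells, and no ratio of it is given. Its main coding transcript Hmgn1-201 was at 0.

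**Figure D3:**
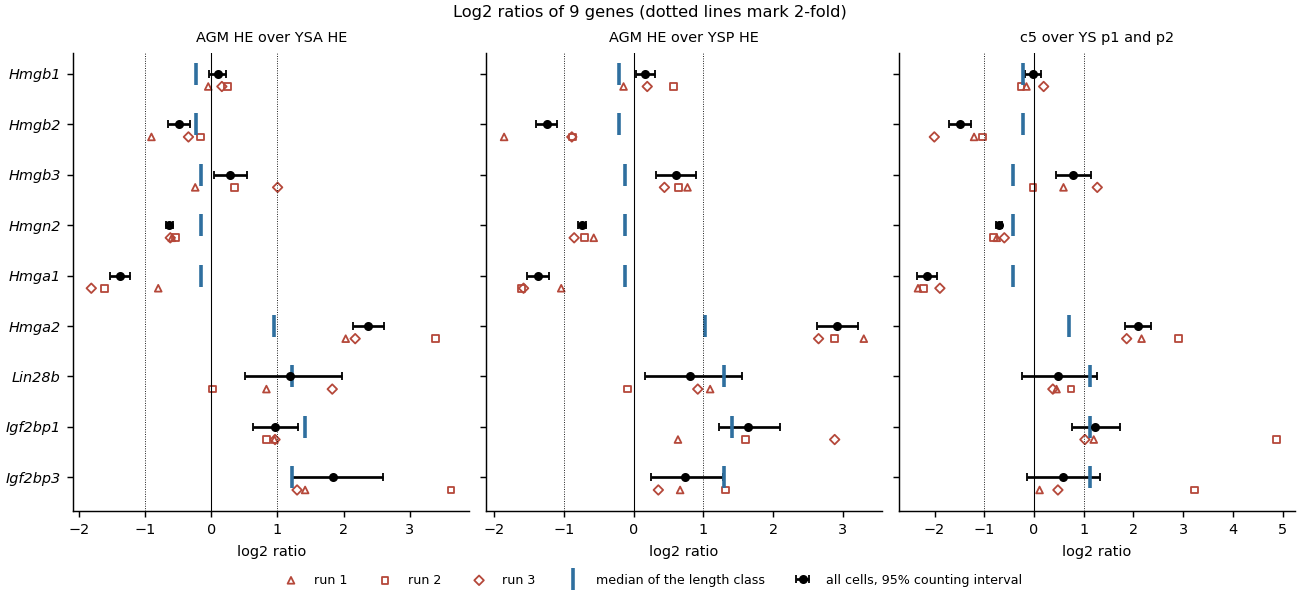
Log2 ratios of 9 genes in 3 comparisons (AGM HE with HE-YSA, AGM HE with HE-YSP, c5 with the yolk sac progenitors), with Hmgn1 left out for its low counts. Black points are all cells with 95% intervals for counting error, red symbols are the 3 sequencing runs, and blue bars are the median of all genes of the same length class. Hmga2 lies above its bar and Hmga1 and Hmgb2 below theirs in all 3 panels, and Lin28b lies on its bar in the first.

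Set against all genes with 50 summed counts or more, the share of members past 2-fold was near that of other genes. In HE-AGM relative to HE-YSA, 3 of 9 tested members were 2-fold or more higher (Hmga2, Lin28b, Igf2bp3) where 29.3% of 8971 genes were, and 1 was lower (Hmga1) where 12% were. The median log2 ratio was 0.29 over the members and 0.25 over all genes. Relative to HE-YSP, 2 of 9 were higher (Hmga2, Igf2bp1) beside 31.2% of 8799 genes and 2 were lower (Hmgb2, Hmga1) beside 13.2%, with medians of 0.60 and 0.30. Scaled by DESeq2's poscounts method, the all-gene median relative to HE-YSA moved from 0.25 to 0.45 and Igf2bp1 passed 2-fold too, and relative to HE-YSP Lin28b did. With yolk sac cells of E10.5 only, 5 of 9 members were higher relative to HE-YSP (Hmgb3, Hmga2, Lin28b, Igf2bp1, Igf2bp3) beside 32.1% of all genes and 1 was lower (Hmgb2) beside 12.8%, and relative to HE-YSA Igf2bp1 joined the 3 higher ones. For HE-YSP over HE-YSA, 1 of 8 was past 2-fold (Igf2bp3) beside 13.1% of 6591 genes.

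Transcript length moved with these ratios. The median log2 ratio of HE-AGM to HE-YSA was -0.23 for genes under 1000 nt of mean transcript length, 0.95 for 3000 to 4000 nt, 1.22 for 4000 to 6000 nt and 1.41 for 6000 nt and over, while for HE-YSP over HE-YSA it stayed between -0.13 and 0.02 in every class. The genes of the Lin28b axis are long: the mean annotated length of their counted transcripts was 3757 nt for Hmga2, 4897 nt for Lin28b, 8107 nt for Igf2bp1 and 4103 nt for Igf2bp3. Against the median of its own class the log2 ratio to HE-YSA was 1.42 for Hmga2 and 0.62 for Igf2bp3, but -0.04 for Lin28b and -0.45 for Igf2bp1. Against HE-YSP it was 1.89 for Hmga2, 0.22 for Igf2bp1, -0.48 for Lin28b and -0.55 for Igf2bp3. Hmga1 and Hmgb2 are short, and lay below their classes by -1.23 and -0.26 against HE-YSA and by -1.25 and -1.04 against HE-YSP. The part of read length or cDNA project in the ratios was not tested.

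**Figure D4:**
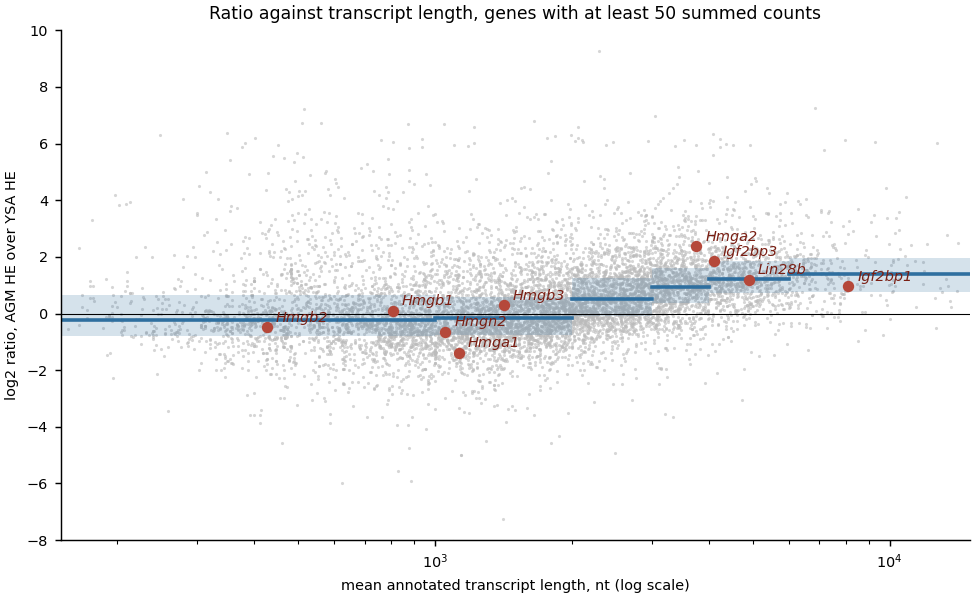
Log2 ratio of HE-AGM over HE-YSA (y axis) against mean annotated transcript length in nt (x axis, logarithmic) for all genes with 50 summed counts or more, with the members named and the class medians drawn. The medians rise from -0.23 under 1000 nt to 1.41 at 6000 nt and over, and Hmga2 stands above them at 2.37 while Lin28b lies on them.

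Along each path few of the genes moved by 2-fold. From the early to the late HE, 0 of 9 members passed it in the AGM (18.1% of all genes did), 0 of 7 in HE-YSA (12.9%) and 1 of 7 in HE-YSP (17.1%), which was Igf2bp1 at 2.44-fold (log2 1.29, 0.41 to 2.29, from 15 to 36 counts). Smaller differences in the HE-AGM, higher in c4 than in c3, were those of Hmgb3 (log2 0.90, 0.61 to 1.19), Hmga2 (0.41), Igf2bp1 (0.39, 0.06 to 0.71) and Hmga1 (0.30). Those of Hmga2 and Hmga1 were positive in each run, whereas Hmgb3 was at -0.10, 0.59 and 1.86 in runs 1, 2 and 3, and Igf2bp1 was below 0 in run 1 (-0.23). Hmga1 was higher in the late cluster of the yolk sac paths as well, at 0.51 in HE-YSA and 0.63 in HE-YSP. From the late HE to its product, none of the members tested passed 2-fold: 0 of 9 for c5 over c4 (17.4% of all genes), 0 of 7 for p1 over a2 (16.9%) and 0 of 7 for p2 over b3 (11.6%). Between the progenitors, 0 of 7 differed 2-fold for p2 over p1 (9.66%), with Hmgb3 the farthest at 0.80.

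In the products too, the shares of members past 2-fold were near those of all genes. For c5 over the yolk sac progenitors, 2 of 9 members were higher (Hmga2 at 4.24-fold, Igf2bp1 at 2.35-fold) beside 23.4% of 6183 genes, and 2 were lower (Hmga1 at 4.44-fold, Hmgb2 at 2.79-fold) beside 17.9%. With the poscounts scaling these shares of all genes were 28.8% and 11.8%, and Hmgb3 passed too. In cells of 30000 to 60000 counts Hmgb2 (log2 -0.97) and Igf2bp1 (0.68) were under 2-fold. Against the median of its length class Igf2bp1 was at 0.11, so its call was lost, and Hmgb3 was at 1.21. For the 4 genes past 2-fold the direction was the same in each run. Hmga1 summed with Hmga1b was at 1276 CPM in c5 and 1243 CPM in the yolk sac progenitors, so its difference was not kept. Lin28b (log2 0.49, -0.25 to 1.27) and Igf2bp3 (0.57, -0.14 to 1.33) did not differ beyond counting error. In c5 all 21 cells held Hmga2, as did 14 of 17 cells of p1 and 14 of 20 of p2.

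The shares of counts assigned to single transcripts differed between the tissues for several of the genes. Leaving Hmgn1 out, 36 transcripts took 5% or more of their gene in any cluster or HE population. Of these, 9 differed by 10 points or more in their share of the gene's counts between HE-AGM and the yolk sac HE. The same count was not made over the transcripts of all genes, so it does not set these genes apart. For Hmgb1, the 1720-nt Hmgb1-203 took 28.4% in HE-AGM (26.1% to 30.8%) and 7.30% in the yolk sac HE (5.99% to 8.73%). The 428-nt Hmgb1-207, a model with an incomplete 3′ end, took 17.1% and 38.2%. Counts of Hmgb1 were whole in 0 of 208 cells, so these shares rest on how reads were divided. For Hmgb3, the retained-intron transcript Hmgb3-206 took 9.58% in HE-AGM (6.87% to 12.8%) and 41.5% in the yolk sac HE (36.2% to 47.1%). Counting protein-coding transcripts only, the log2 ratio of Hmgb3 was 0.98 to HE-YSA and 1.14 to HE-YSP, past 2-fold in the latter. The all-gene medians were then 0.48 and 0.49, and 34.4% and 35.7% of genes were 2-fold or more higher. Lin28b passed 2-fold relative to HE-YSP in that setting too.

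For Lin28b, the full coding transcript Lin28b-201 of 5402 nt held 79 of 85 counts in HE-AGM (92.9%) and 28 of 45 in the yolk sac HE (62.2%). The shorter Lin28b-203 of 1382 nt, with no defined coding sequence, held 7.06% and 35.6%. Of the yolk sac runs, run 2 had the lowest Lin28b-201 share, at 31.2%, beside 80.0% and 78.9%. Igf2bp1-201 held 96.9% and 93.8%, and Igf2bp3-201 held 95.7% and 84.4%, a difference of 11.4 points that was -1.36 points without run 3. For Hmga1, Hmga1-205 of 1045 nt took 48.5% in HE-AGM and 33.3% in the yolk sac HE, and the longer Hmga1-216 and Hmga1-203 took 2.07% and 2.66% against 13.1% and 13.2%, the transcripts most alike to Hmga1b. Hmga2-201 and Hmga2-203 took equal shares in each population, 49.8% each in HE-AGM and 49.1% each in the yolk sac HE, so the counts do not tell them apart. Long transcripts held more of all counts in the AGM clusters, and cDNA project went with tissue. For Hmgb1 and Lin28b the longer transcript had the larger share in HE-AGM, while the longer Hmga1-216 and Hmga1-203 had smaller ones. The part of transcript length or cDNA project in these shares was not tested.

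**Figure D5:**
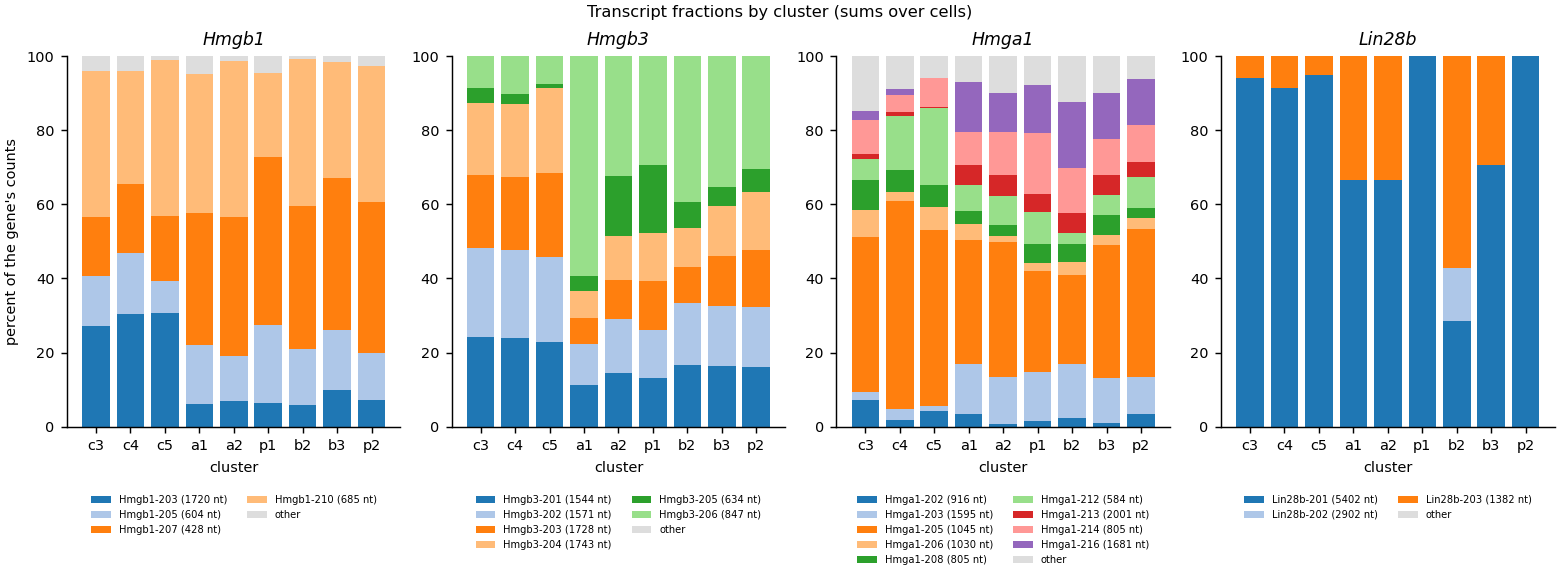
Share of each gene's counts on its transcripts, in percent, for Hmgb1, Hmgb3, Hmga1 and Lin28b in the 9 clusters. Each stacked bar sums to 100% of the gene's counts in that cluster. The retained-intron Hmgb3-206 takes 41.5% in the yolk sac HE and 9.58% in HE-AGM, and Lin28b-201 takes 62.2% and 92.9%. Tissue and cDNA project cannot be told apart in these shares.

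Pseudogenes and copies named after the genes carried a large part of the family counts, most of it on Hmga1b and Hmgn2-ps, which are annotated as protein-coding. Of 18 named symbols, Hmga1b held 5432 counts, Hmgn2-ps 4707, Hmgb1-ps5 1286 and Hmgn2-ps1 138. Between 27.1 and 65.7 counts were on Hmgb1-ps1, Hmgb1-ps2, Hmgb1-ps3, Hmgb1-ps4, Hmgb1-ps7, Hmgb1-ps9 and Hmga2-ps1, and Hmgb3-ps was at 0. Together they held 28.5% of the family counts in HE-AGM (27.8% to 29.3%) and 19.1% in the yolk sac HE (18.5% to 19.7%), a difference of 9.44 points that was -0.177 points with annotated pseudogene biotypes only. By family the direction differed. In the Hmgb1 family the share was 23.5% in HE-AGM (21.6% to 25.5%) and 31.4% in the yolk sac HE (29.4% to 33.4%), and in the Hmgn2 family it was 18.3% and 14.7%. Hmga2-ps1 was near absent in HE-AGM at 0.815% of its family and highest in p2, at 30.9 CPM and 22.3%.

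These shares rest on how reads were divided between near-identical sequences. With its named pseudogenes Hmgb1 had a whole count in 0.481% of cells, and in 53.8% once 42 further pseudogenes alike in sequence were added. For Hmgn2 the share of cells rose from 1.92% for the gene alone to 71.2% with 10 such genes, and for Hmgn1 from 17.6% to 96.9% with 4. For Hmgb2 it went from 2.63% of cells to 0.966% with 5 look-alikes, so the counts of that set were still not whole in nearly all cells. The counts of Lin28b, Igf2bp1 and Igf2bp3 were whole in every cell that had any, as for Hmga2. Counting the gene with the look-alikes found, Hmgb2 stood at 461 CPM in HE-AGM, 813 in HE-YSA, 1175 in HE-YSP, 482 in c5 and 1214 in the progenitors, in the same order as the gene alone over the 3 HE populations.

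The other genes of the let-7 circuit leaned to HE-AGM, as did long genes in general, and their counts stand beside 29.3% of all genes higher and 12% lower against HE-YSA, 31.2% and 13.2% against HE-YSP. Of 13 tested genes of let-7 biogenesis and decay, 7 were past 2-fold in favour of HE-AGM against HE-YSA and 0 the other way, with a median log2 of 1.01 beside 0.25 over all genes. They include Khsrp, a let-7 processing factor, at 157 CPM against 15.7 CPM, Trim71 (log2 2.72), the exporter Xpo5 (2.04) and Ago1 (1.99). Of 17 tested let-7 targets 8 were higher and 0 lower (median 0.96), among them the receptor Igf1r (3.36), Plagl2 (2.62) and the cyclin Ccnd2, at 144 CPM against 33.1 CPM. Trim71 and Dicer1 are on both lists. The genes of these lists were not set against their length classes. Against HE-YSA 18.7% of all genes under 1000 nt were higher (median -0.23). At 3000 to 4000 nt 48.4% were higher (median 0.95), and at 6000 nt and over 66.6% (median 1.41). Against HE-YSP the counts were 8 of 13 higher (median 1.24, with Dicer1 at 2.84) and 9 of 18 higher with 1 lower (median 0.99, with Arid3b at 3.17). For HE-YSP over HE-YSA, 0 of 9 and 1 of 14 were higher and 3 and 5 lower, beside 6.04% of all genes higher and 7.09% lower. For c5 over the yolk sac progenitors, 5 of 8 and 8 of 14 were higher and 1 of each list lower, beside 23.4% and 17.9% of all genes.

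Of the Igf2 axis, which Igf2bp proteins serve, 4 of 7 tested genes favoured HE-AGM and 1 the yolk sac in each comparison (median log2 1.45 to HE-YSA, 1.98 to HE-YSP). Of all genes 29.3% were higher and 12% lower against HE-YSA (median 0.25), and 31.2% and 13.2% against HE-YSP (median 0.30). The genes of this list were not set against their length classes. H19 was at 5180 CPM in HE-AGM and 1897 CPM in HE-YSA, the receptors Igf2r and Insr both had a log2 ratio of 2.25, and Igf1 was lower in HE-AGM than in HE-YSP (-3.38). Of 9 tested other HMG genes 3 were higher and 0 lower against HE-YSA (Hmgn5 at 2.57, Pbrm1 at 1.37, Hmgxb4 at 1.28), and 3 and 0 against HE-YSP, led by Hmgn3 at 3.86, a share close to that of all genes in both. Linker histones, which compete with HMG proteins on nucleosomes, were split 2 and 2 of 4 against HE-YSA: H1f10 (248 counts against 1) and H1f0 (log2 1.40) higher, H1f2 (-1.82) and H1f5 (-1.45) lower. Of 22 genes of S and G2/M phase 7 stood above HE-YSA in the AGM HE and 0 below (median 0.74), with Mki67 at 239 counts against 2 and Top2a at 374 CPM against 50.6 CPM. Hmgb2 had a log2 ratio of -0.49 there, under 2-fold. Against HE-YSP 8 of 22 were higher and 0 lower, with a median of 0.21 beside 0.30 over all genes, so the higher shares were near those of all genes in both.

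By Pearson correlation of log2(CPM + 1) over 27 sets of cells, each a cluster in a run, the gene most like Igf2bp1 among 2604 well-counted genes was Igf2bp2 (r = 0.852). The gene most like Hmga2 was Cox16 (0.933), for Hmgn2 Sub1 (0.898), for Hmgb2 Timm13 (0.818), for Igf2bp3 Mprip (0.781), for Hmgb3 Spin1 (0.702), for Hmgb1 Cnpy2 (0.684) and for Lin28b Wdr43 (0.676). Hmga1 was most like a gene listed as ENSMUSG00000127923 (0.951) and Cnbp (0.946). The sets share tissue, cDNA project and depth, so these values are descriptions.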

How the data were processed

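Single cells were amplified by Smart-seq2 and sequenced on a nanopore instrument in 3 runs. The authors basecalled, trimmed and removed chimeric reads, aligned them with minimap2 2.26 to GENCODE transcripts (release 37), with up to 10 alignments a read, and ran NanoCount. Its estimated counts, as the authors deposited them, are unscaled, and 60.3% of their sum was on values that were not whole. The deposited TPM table was not used. The authors' later scaling with DESeq2 1.40.2 (R 4.3.0) was not part of them.

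The labels gave each cell's cluster. Libraries under 17595 counts (1 scaled median absolute deviation below the median) were left out. Counts within 1e-06 of a whole number were set to it. Counts were summed per symbol and cluster and divided by the total (CPM). Log2 ratios added 0.5 counts to each sum and were read for genes with 50 summed counts or more. Thinning drew each cell to the filter limit. Pseudogenes alike in sequence were found with BLAST 2.17.0+ (95% identity over 90% of the length, 200 nt or more). Annotation, 3′ UTRs and coordinates came from GENCODE M21 (GRCm38), which lists all 69 transcripts with the same length; the annotation of the files was not used here. Python 3.11.15, numpy 2.4.6, scipy 1.17.1 and pandas 2.3.3 were used, and the ratios were tested on simulated data. PCR copies carry no molecular identifiers. Alternatives were other scalings, filters, run and stage subsets, and gene sets. The genes and lists were chosen with earlier results of these data known. All 10 genes were named, pseudogenes with 10 counts or more, up to 4 genes of each list with the largest ratios, and the genes most alike across clusters. Without embryos as replicates no test was possible.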

Additional observations from a re-analysis of the deposited data

Results flagged for a closer look

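Hmgb2 moved in opposite directions from late HE to product in the AGM and HE-YSA paths. It was lower in c5 than in c4 (log2 -0.46) and higher in p1 than in a2 (log2 0.67). Each sign was the same in all 3 runs, though c5 and c4 were nearly level in run 2. Both differences were under 2-fold and were not tested. In the HE-YSP path Hmgb2 was at 448 CPM in b3 and 444 CPM in p2. Summed with its look-alikes, its level was 477 CPM in c4 and 482 CPM in c5, so that the drop was not kept, and 832 CPM in a2 and 1355 CPM in p1.

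Counts were also found on pseudogenes that are not named after the genes but match them over 90% of their length at 95% identity or more. Over all cells 42 such pseudogenes of Hmgb1 held 5237 counts (Gm10075 3723, Gm21596 911), 5 of Hmgb2 held 4673, 1 of Hmgb3 held 95.01, 4 of Hmgn1 held 213 and 10 of Hmgn2 held 6398 (Gm7931 3808). The look-alikes of Hmgb1, Hmgb2 and Hmgn1 held more counts than the genes. Whether these are reads of the genes was not tested.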

How the results depend on the processing

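Of 548 log2 ratios of the genes under other settings, 7 were exceptions, with a sign opposite to a reported ratio of 2-fold or more. Ratios reported under 2-fold could not count as exceptions, even where their sign changed, so this count says nothing about those. The exceptions were Hmga1 with its named pseudogenes, with or without look-alikes (0.28 for HE-AGM over HE-YSA, 0.23 over HE-YSP and 0.0379 for c5 over the progenitors), and Lin28b for HE-AGM over HE-YSA against its length class (-0.037). Against length classes 2 members, not 4, passed 2-fold in that comparison, Hmga2 higher and Hmga1 lower. Of all genes 19.2% were then higher and 12.9% lower. For HE-YSP over HE-YSA the count of 1 became 0 with the library limit on the log scale and with cells of 30000 to 60000 counts, and 0 to 1 with a run left out (without run 1 the gene was Igf2bp1, not Igf2bp3). In cells of that depth 2 members, not 4, passed for c5 over the progenitors, and the all-gene median for HE-AGM over HE-YSA was 0.00449 while Hmga1, Hmga2, Igf2bp1 and Igf2bp3 passed. Without run 3 Lin28b had too few counts to be read. The named pseudogene share was 9.44 points higher in HE-AGM, 6.68 to 10.8 with a run left out, 6.04 in cells of 30000 to 60000 counts, 3.27 with look-alikes and -0.177 with annotated pseudogene biotypes only, which drop Hmga1b and Hmgn2-ps. The share difference of Igf2bp3-201 was 11.4 points, and -1.36 to 19.6 with a run left out, the lowest without run 3. Cells with Lin28b were 32.7% in HE-AGM and 18.8% in the yolk sac HE, 16.3% and 13.9% thinned, and 26.5% and 6.93% at 3 counts or more. The cause of these shifts was not tested. Lin28b is limited by depth, with 21 counts in HE-YSA and 24 in HE-YSP. No paired analysis was possible because no embryo is named and no test was run.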
